A study of Arabidopsis thaliana with 11 samples.

Results

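AT5G66650 is an Arabidopsis gene of the calcium uniporter family. Its newly made RNA was read by 1 probe set, the only one that the array platform's annotation pairs with this locus, among 19524 features tested. Each feature was 1 probe set standing for 1 gene, or a probe set without a name in the tables used here. The gene was chosen by its labeled level on these same arrays, which was higher in cells expressing bZIP1 than in empty vector cells, so that difference is described here without a test. The gene lists set beside it were also chosen with earlier results of these data known.

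Calcium uniporters are ion channels of organelle membranes. They let calcium enter the matrix of mitochondria, driven by the voltage across the inner membrane, and the plant family also has a member in chloroplasts. Calcium taken up by mitochondria shapes the calcium signals of the cytosol and the activity of enzymes of respiration. In which organelle the AT5G66650 protein lies cannot be read from these arrays. bZIP1, the transcription factor under study, binds ACGT-containing elements and is known in Arabidopsis as a regulator of sugar- and nitrogen-responsive genes, several of which break down amino acids when carbon is short.

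The study asked which genes are being transcribed after bZIP1 enters the nucleus. All cells were protoplasts of wild-type Columbia (Col-0) roots. The 4tU-bZIP1 group (n = 6) carried 35S::GR::bZIP1, in which the constitutive 35S promoter drives bZIP1 fused to the glucocorticoid receptor (GR), and the 4tU-EV group (n = 5) carried the empty vector pJD385_35S::GR. Both groups therefore made a GR product. Both were given nitrogen as KNO3 and NH4NO3 (20 mM each), 35 µM cycloheximide for 20 min to block translation, 10 µM dexamethasone for 5 h to release GR into the nucleus, and 1.5 mM 4-thiouracil (4tU) with 0.2 mM uracil for 20 min. RNA made during the last step carries the thiol and was pulled down, amplified and hybridized. The transfected cells, marked by a red fluorescent protein, were sorted before RNA was taken, 30000 per sample by the methods. There was no group with bZIP1 but without dexamethasone, and bZIP1 was made from a strong promoter in transiently transfected cells.

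The deposited values were GCRMA intensities, which are background-corrected and normalized brightness values on a linear scale. Between 6332 and 7260 probe sets reached an intensity of 32 on an array. 4tU-bZIP1 replicate 1 stood apart, with the lowest of these counts and a median correlation with the other arrays of 0.878, against 0.943 to 0.965 on the other 10. No probe set was paired with bZIP1 itself in the tables used here, so the labels were not checked on its level. Of 20 marker genes of root and leaf cell types, 2 could be tested. The epidermal regulator WER (MYB66 in RefSeq) lay between 6.98 and 146 in 4tU-bZIP1 and between 6.08 and 66.0 in 4tU-EV. The root hair expansin EXPA7 was at 55.0 on 4tU-bZIP1 replicate 1 and between 4.93 and 5.18 on the other 10 arrays.

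Labeled AT5G66650 RNA was several fold more abundant in the cells expressing bZIP1, on every array. Its intensity was 987, 1115, 524, 648, 711 and 801 on 4tU-bZIP1 replicates 1 to 6. On 4tU-EV replicates 1 to 5 it was 179, 115, 158, 101 and 63.2. The groups did not overlap, and even the lowest 4tU-bZIP1 array, replicate 3, was 2.93 times as bright as the highest 4tU-EV array, replicate 1. The brightest array was 4tU-bZIP1 replicate 2 and the dimmest 4tU-EV replicate 5.

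AT5G66650 averaged 798 ± 220 in 4tU-bZIP1 (SD, n = 6) and 123 ± 46.0 in 4tU-EV (SD, n = 5), a ratio of means of 6.47. The medians were 756 in 4tU-bZIP1 and 115 in 4tU-EV. On the log2 scale the difference, 4tU-bZIP1 minus 4tU-EV, was 2.74 with a standard error of 0.30 from the SDs pooled over both groups, a 6.68-fold change of the geometric means. Taken one at a time, the 4tU-bZIP1 arrays lay 2.18 to 3.27 log2 units above the mean of 4tU-EV. In bulk RNA of this kind, more cells making a transcript and more transcript made per cell cannot be told apart.

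**Figure D1:**
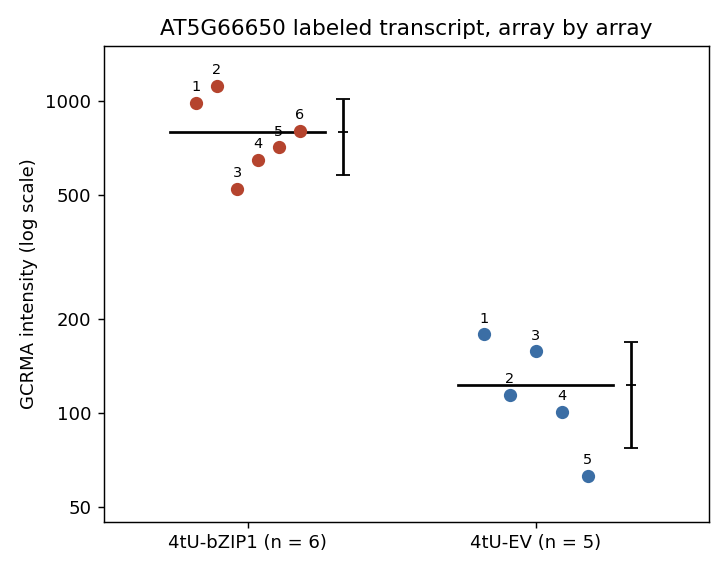
GCRMA intensity of AT5G66650 (log axis) on each array of 4tU-bZIP1 (left, n = 6) and 4tU-EV (right, n = 5). Points are arrays with their replicate number, the line is the mean of the intensities and the bar is ± 1 SD. The 4tU-bZIP1 arrays lie between 524 and 1115 and the 4tU-EV arrays between 63.2 and 179.

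Within a group AT5G66650 varied a little less than the middle feature of these arrays. The brightest array was 2.13 times the dimmest in 4tU-bZIP1 and 2.83 times in 4tU-EV. The coefficient of variation was 27.6% in 4tU-bZIP1 and 37.4% in 4tU-EV, and the SD of the log2 values was 0.40 in 4tU-bZIP1 and 0.59 in 4tU-EV. The pooled SD of AT5G66650 on the log2 scale was 0.49, against a median of 0.62 over the 7000 features whose mean log2 intensity was 5 or more (an intensity of 32). Those features include dimmer ones than AT5G66650, and its choice by the group difference may favor a small spread. Without 4tU-bZIP1 replicate 1, the array that stood apart, the log2 difference was 2.67. It was 2.52 without 4tU-EV replicate 5, the dimmest array, and 2.90 without 4tU-EV replicate 1.

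Among all 19524 features the log2 difference of AT5G66650 was the 6th highest, and it kept that place among the 7000 features with a mean log2 of 5 or more. The median log2 difference of all features was 0.0014. With limma, 36 features (0.184%) passed a Benjamini-Hochberg adjusted p of 0.1, of which 32 were higher (0.164%) and 4 lower (0.0205%) in 4tU-bZIP1. Every 4tU-bZIP1 array lay above every 4tU-EV array for 79 features (0.405%), AT5G66650 among them. Its places follow from how the gene was chosen and are not evidence about it. AT5G66650 appears in none of the supplementary gene lists of the study that were used here. By its methods, the study filtered its called genes for ambiguous probes and for effects of protoplasting and cycloheximide. Why AT5G66650 is absent was not tested.

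The other measured genes on the uniporter family list had small negative differences, and none of them passed the test. The list held 6 further loci, placed there from background knowledge since RefSeq gives these loci by code alone. Whether each is a channel or a regulator of one was not checked. Of the 6 loci, 2 could be tested. With limma at an adjusted p of 0.1, 0 of the 2 were called in either direction, against 36 of all 19524 features (0.184%). An unadjusted p under 0.05 was found for 0 of the 2, against 4.74% of all features. With shares this small, 0 of 2 is not a result about the family. The methods' one-way test called 0 of the 2 as well. The study also took genes called by a rank product test, which was not run here.

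AT1G09575 had intensities of 125, 159, 131, 180, 241 and 174 in 4tU-bZIP1 and of 266, 174, 209, 168 and 170 in 4tU-EV. The groups overlapped, with 3 of the 6 4tU-bZIP1 arrays below all 4tU-EV arrays, and the mean was 168 ± 42.0 in 4tU-bZIP1 (SD, n = 6) and 197 ± 42.0 in 4tU-EV (SD, n = 5). The log2 difference was -0.24 with a standard error of 0.19 (limma, adjusted p = 0.847). For AT4G32060 the 4tU-bZIP1 arrays lay between 1034 and 3429 and the 4tU-EV arrays between 1900 and 2410. Replicates 1 and 6 of 4tU-bZIP1 were its highest and lowest arrays, and the 4tU-EV range lay inside that of 4tU-bZIP1. Its log2 difference was -0.14 with a standard error of 0.25 (limma, adjusted p = 0.892), and it was 0.02 without 4tU-bZIP1 replicate 6. Whether AT5G66650 differed from either gene in its response was not tested.

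No gene of the wider calcium machinery that could be tested passed the test beside AT5G66650. Of 126 listed genes for pumps, exchangers, channels, calmodulins and calcium-regulated kinases, 14 could be tested, 6 of them under an intensity of 32 on every array. With limma at an adjusted p of 0.1, 0 were higher and 0 lower, against 36 of all 19524 features called (0.184%). An unadjusted p under 0.05 was found for 4 of the 14, all with negative differences, against 926 of all 19524 features (4.74%). The methods' one-way test called 0. The median log2 difference of the 14 was -0.12, against 0.0014 over all features. Positive differences were found for 4 of the 14 and negative ones for 10. CAM9 and CIPK25 could be tested only because the study's tables, which hold genes it had called on these arrays, name them. Both had negative differences, so the count at an unadjusted p under 0.05 and the median are not independent evidence of direction. No calcium-dependent protein kinase and none of the other listed transporters of mitochondria and plastids could be tested under its name. Of all features tested, 7640 had no name, and whether listed genes are among them was not tested.

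CAM9, a calmodulin that carries calcium signals to other proteins, averaged 5238 ± 586 in 4tU-bZIP1 (SD, n = 6) and 7121 ± 524 in 4tU-EV (SD, n = 5). Its arrays lay between 4605 and 6234 in 4tU-bZIP1 and between 6585 and 7673 in 4tU-EV, so the groups did not overlap, as was so in this direction for 88 features in all (0.451%). The log2 difference was -0.45 with a standard error of 0.08 and missed the threshold (limma, adjusted p = 0.131), which it passed without 4tU-bZIP1 replicate 2 (adjusted p = 0.051). CIPK25, a kinase driven by calcineurin B-like calcium sensors, averaged 632 ± 152 in 4tU-bZIP1 (SD, n = 6) and 1098 ± 259 in 4tU-EV (SD, n = 5), also without overlap. Its log2 difference was -0.80 with a standard error of 0.20 (limma, adjusted p = 0.476). Both names come from the study's own gene tables and not from the platform, and those tables hold genes the study had called on these arrays.

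**Figure D2:**
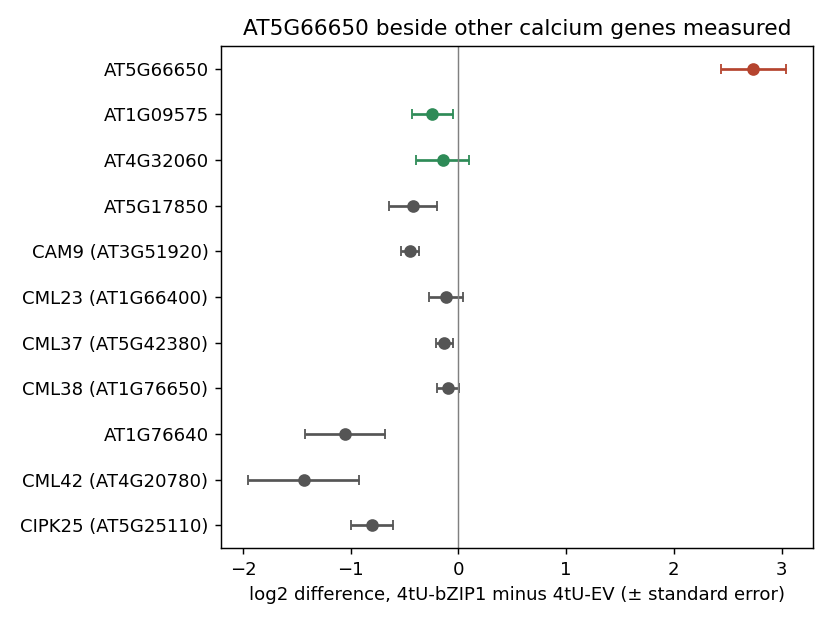
Log2 difference, 4tU-bZIP1 minus 4tU-EV, of AT5G66650 (red, bar ± its pooled standard error), of the 2 other genes tested from the family list (green) and of the 8 further calcium genes with an intensity of 32 or more on some array (grey, bars ± limma's standard error). AT5G66650 lies at 2.74, and the other 10 lie below 0. The 6 calcium genes under 32 on every array are not drawn, and the 4 of the 14 tested genes with positive differences are among these. CML42 is drawn through 4tU-EV replicate 1 alone, where it had 65.9. CAM9 and CIPK25 are named by the study's tables alone.

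The calcium uniporters sit in mitochondria and plastids, and no tested gene of those that Arabidopsis induces when mitochondria are impaired passed the test in the comparison in which AT5G66650 was higher. Of 12 such genes listed, 4 could be tested and 0 passed in either direction (limma, adjusted p under 0.1), against 0.184% of all features. Among the 4, 2 had an unadjusted p under 0.05, both with negative differences, against 4.74% of all features. AT5G51440 averaged 234 ± 43.6 in 4tU-bZIP1 (SD, n = 6) and 348 ± 46.4 in 4tU-EV (SD, n = 5), a log2 difference of -0.59 (limma, adjusted p = 0.566). Its groups did not overlap, though the highest 4tU-bZIP1 array, at 273, and the lowest 4tU-EV array, at 274, nearly met. AT5G09570 was dim and had a median of 9.08 in 4tU-bZIP1 and of 35.8 in 4tU-EV, with 1 of 6 4tU-bZIP1 arrays below all 4tU-EV arrays. Its log2 difference was -1.63 (limma, adjusted p = 0.693). Without 4tU-EV replicate 5, where AT5G09570 had 7.53, the difference was -2.09 and passed the threshold (limma, adjusted p = 0.068).

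Of the genes of carbon starvation and darkness, which bZIP1 is known to regulate, 13 were listed and 8 could be tested in the comparison in which AT5G66650 was higher. Of these, 5 rose, 0 fell and 3 did not pass (limma, adjusted p under 0.1), against 32 of all 19524 features called higher (0.164%). The median log2 difference was 1.45 over the 8, against 0.0014 over all features. The study named 6 of the 8 from these same arrays. MCCA, which the platform names, is in the study's list of induced genes too. The count and the median are therefore not independent evidence of their direction. BCAT-2, an aminotransferase of branched-chain amino acids, had a log2 difference of 2.99 (limma, adjusted p = 0.027), somewhat above that of AT5G66650. DIN10, a raffinose synthase-like gene of dark-treated leaves, had 2.38 (limma, adjusted p = 0.097), and 10 of the 11 fits that left out 1 array ended its call. MCCA, which acts in leucine breakdown, had 1.63 (limma, adjusted p = 0.0100), the proline dehydrogenase ERD5 had 1.26 (0.0020) and the glutamate dehydrogenase GDH2 had 0.70 (0.051). GDH2 lost its call in 8 of the 11 fits that left out 1 array. The 3 that did not pass were DIN2, a glucosidase gene, with a log2 difference of 0.81 (limma, adjusted p = 0.101), the dark-inducible SEN1 with 2.32 (0.476) and the kinase subunit AKINBETA1 with 0.57 (0.847). SEN1 varied widely, at 688 ± 640 in 4tU-bZIP1 (SD, n = 6) and 112 ± 46.8 in 4tU-EV (SD, n = 5).

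The tested genes beside AT5G66650 on chromosome 5 were dim and did not pass the test. Of the 5 genes on each side in RefSeq's order, 2 could be tested. In either direction 0 of the 2 passed (limma, adjusted p under 0.1), against 0.184% of all features. The methods' one-way test also called 0. AT5G66660 was near the bottom of the scale on all arrays, between 4.94 and 7.14 in 4tU-bZIP1 and between 4.94 and 5.05 in 4tU-EV. AT5G66670 lay between 11.4 and 77.6 in 4tU-bZIP1 and between 28.5 and 62.7 in 4tU-EV, which overlapped. The nearest gene on each side, DAR3 and the long noncoding RNA gene AT5G09665, was not analysed here.

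The likeness of other genes to AT5G66650 was measured as Pearson's r and Spearman's rho of the log2 values over the 11 arrays, among 6999 further features with a mean log2 of 5 or more. Because each point is an array, array-wide shifts enter both genes of a pair, and because the difference between the groups is part of r, any gene with a large difference had to correlate with AT5G66650. These correlations are therefore a description. The median r over all 6999 features was -0.09. An r of 0.9 or more was found for 30 features, of which 13 are named by the platform, 8 by the study's tables alone and 9 by neither.

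**Figure D3:**
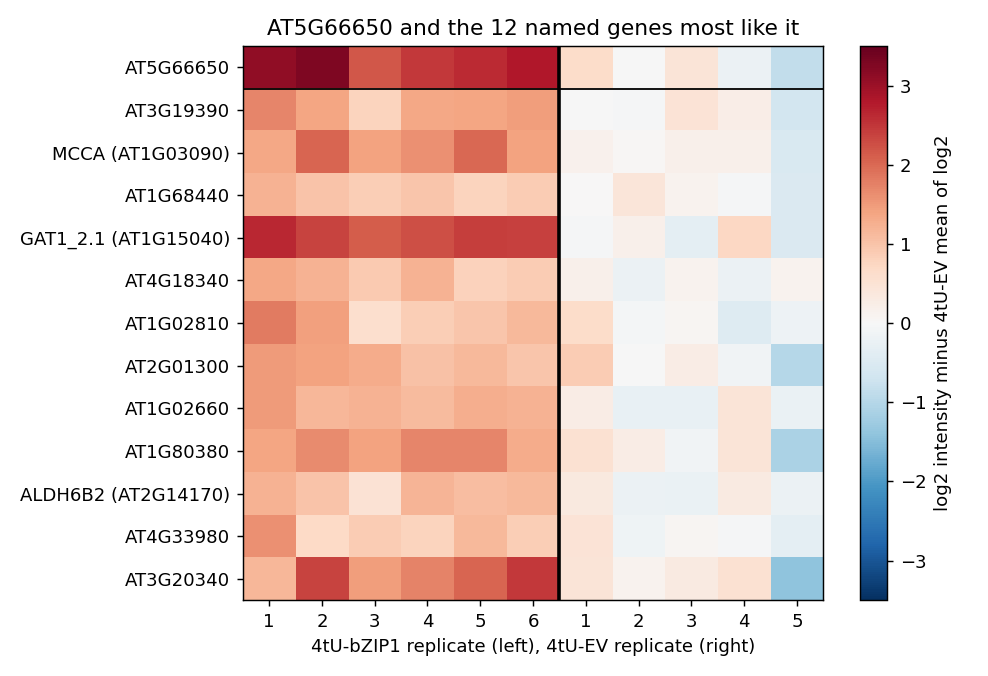
Log2 intensity minus the gene's mean log2 in 4tU-EV, by array (columns, 4tU-bZIP1 replicates left and 4tU-EV replicates right), for AT5G66650 (top row) and the 12 platform-named genes with the highest r to it. Red is above and blue below the 4tU-EV mean, and 4tU-EV replicate 5 is the lowest array for 8 of the 12 as it is for AT5G66650.

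For the 12 platform-named genes most like AT5G66650, r ran from 0.906 to 0.958 and rho from 0.755 to 0.973. Without the 2 arrays farthest from the median of AT5G66650, 4tU-EV replicates 5 and 4, r ran from 0.849 to 0.961. All 12 had positive log2 differences, from 0.95 to 2.36. The groups did not overlap in 11 of them, against 79 of all 19524 features in this direction (0.405%). With limma 7 of the 12 were among the 32 features called higher (0.164% of all). The study's list of induced genes, made from these same arrays, also holds 7 of the 12, though not all the same genes. The choice of the 12 by likeness to a gene whose groups do not overlap favors all of these counts.

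The closest was AT3G19390, a cysteine protease with a granulin repeat (r = 0.958, rho = 0.927). Its lowest, median and highest intensities in 4tU-bZIP1 were 1373, 2086 and 2582, and its 4tU-EV replicates 1 to 5 had 795, 774, 1100, 931 and 509. As with AT5G66650, replicate 3 was the dimmest 4tU-bZIP1 array and replicate 5 the dimmest of 4tU-EV. MCCA followed (r = 0.958, rho = 0.809), with 737, 815 and 1194 as lowest, median and highest in 4tU-bZIP1 and 320, 295, 327, 327 and 197 in 4tU-EV replicates 1 to 5. Here the dimmest 4tU-bZIP1 array was replicate 1, where AT5G66650 was near its highest.

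GAT1_2.1, a glutamine amidotransferase, had the largest log2 difference of the 12, 2.36 (r = 0.939, rho = 0.855). It ran from 3029 to 4339 in 4tU-bZIP1 and from 488 to 1151 in 4tU-EV, without overlap. Its brightest 4tU-EV array was replicate 4, on which AT5G66650 was second lowest of that group. AT1G02810 had the highest rho, 0.973, with an r of 0.924, and was the gene of the 12 whose groups overlapped. It ran from 685 to 1597 in 4tU-bZIP1 and from 333 to 707 in 4tU-EV, with 5 of 6 4tU-bZIP1 arrays above all 4tU-EV arrays.

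The other 8 were AT1G68440, the glycosyl hydrolase AT4G18340, AT2G01300, AT1G02660, AT1G80380 of the P-loop nucleoside triphosphate hydrolases, the aldehyde dehydrogenase ALDH6B2, which acts in valine breakdown, AT4G33980 and AT3G20340. Their r lay between 0.906 and 0.940. Among genes named by the study's tables alone, BCAT-2 came nearest (r = 0.968), before the inositol oxygenase MIOX2 (0.960), the protein kinase STY46 (0.946), the senescence regulator NAP (0.943), DIN10 (0.937) and GDH2 (0.937). The calls of AT3G19390, AT1G68440 and ALDH6B2 ended in 8, 9 and 8 of the 11 fits that left out 1 array.

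Subtracting each group's mean from both genes leaves only the variation between replicates. The 12 genes were picked by r over the same arrays, which includes this variation, so the values on this scale are a description too. Here the r of the 12 with AT5G66650 ran from 0.24 for AT1G02660 to 0.82 for AT2G01300, and was 0.5 or more in 8 of them. For AT1G02810 it was 0.78, with 0.910 within the 6 4tU-bZIP1 arrays alone. Over all 6999 features the median was 0.10. For the 28 features besides AT5G66650 that were called higher with a mean log2 of 5 or more, r over all arrays was at least 0.807, with a median of 0.933. With group means removed it ran from -0.41 to 0.79, with a median of 0.28, and was above 0 in 22 of the 28.

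**Figure D4:**
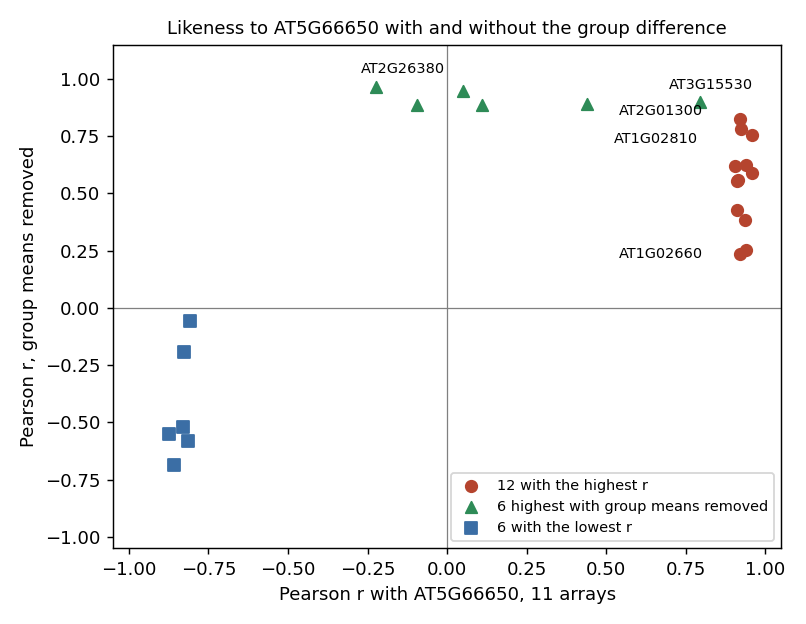
Pearson r with AT5G66650 over the 11 arrays (horizontal) against r after each group's mean was subtracted (vertical), each point being a gene: the 12 with the highest r (red circles), the 6 highest with group means removed (green triangles) and the 6 with the lowest r (blue squares). The 12 spread from 0.24 to 0.82 on the vertical axis, and none of them is among the 6.

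The genes that followed AT5G66650 most closely from replicate to replicate were others. The 6 highest platform-named genes with group means removed had an r of 0.885 to 0.964 and a rho of 0.755 to 0.945, and 0 of them were among the 12. Without the 2 arrays on which AT5G66650 deviated most from its group mean, 4tU-EV replicates 5 and 1, r ran from 0.747 to 0.932. Their log2 differences lay between -0.34 and 0.34, 4 of them below 0. With limma 0 of the 6 were called at an adjusted p of 0.1, against 36 of all 19524 features (0.184%).

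AT2G26380 headed them, with an r of 0.964 once group means were removed and of 0.995 within the 6 4tU-bZIP1 arrays, while its r over the 11 arrays as they stand was -0.22. Its 4tU-bZIP1 replicates 1 to 6 had 1954, 2062, 1311, 1469, 1526 and 1661, and its 4tU-EV replicates 1 to 5 had 2784, 2138, 2299, 2161 and 1330. In 4tU-bZIP1 the arrays stood in the same order as for AT5G66650, replicate 2 highest and replicate 3 lowest, and in 4tU-EV replicate 1 was highest and replicate 5 lowest for both. The group means, 1664 ± 291 in 4tU-bZIP1 (SD, n = 6) and 2142 ± 523 in 4tU-EV (SD, n = 5), gave a log2 difference of -0.34 (limma, adjusted p = 0.847). The others were AT3G54200 (0.949), AT3G15530 (0.898), AT3G56410 (0.889), AT2G24550 (0.886) and the tetraspanin TET9 (0.885).

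At the other end, the 6 platform-named genes least like AT5G66650 had an r of -0.874 to -0.808. With limma 0 of the 6 were called lower, against 4 of all 19524 features (0.0205%). The study's own list of repressed genes, made from these same arrays, holds 4 of the 6. The groups did not overlap in 3, against 88 of all 19524 features in this direction (0.451%), and the choice by low r favors this count. AT3G02555 had the lowest r (-0.874), with 26.9, 43.5 and 72.4 as lowest, median and highest in 4tU-bZIP1 and 77.0, 121, 64.6, 105 and 102 in 4tU-EV replicates 1 to 5. AT4G00170, of the plant vesicle-associated membrane protein family, ran from 29.8 to 104 in 4tU-bZIP1 and from 126 to 331 in 4tU-EV, without overlap (log2 difference -1.45; limma, adjusted p = 0.561). The remaining 4 were AT1G51200, AT4G39570, AT5G27770 and AT1G10740.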

How the data were processed

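ATH1 arrays were hybridized by the authors with amplified, pulled-down RNA and normalized with GCRMA from Bioconductor. The deposited table holds a linear intensity for each of 22810 probe sets on each of 11 arrays. Groups and replicate numbers came from the sample labels, which call the arrays biological replicates. Their number limits the precision.

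Log2 was taken with no pseudocount. The 64 control probe sets and 2309 with the same value on all arrays (relative tolerance 1e-09) were left out. In the platform's annotation, 13513 probe sets have 1 gene, 503 have several and 8794 are absent. The study's gene tables named 118 further features. Probe sets with several genes and 330 unnamed ones whose suffix marks shared sequence were left out, and for each gene the probe set with the highest mean was used, which left 11884 named and 7640 unnamed features. No coordinates are printed, since the files name no genome build.

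Groups were compared by lmFit and eBayes of limma 3.58.1 (R 4.3.3) at an adjusted p of 0.1, 4tU-bZIP1 minus 4tU-EV. The fit was tested on simulated data. The study's rank product test and its filters for protoplasting and cycloheximide effects were not rerun, so its full procedure was not repeated. Likeness was computed with numpy 2.4.6, scipy 1.17.1 and pandas 2.3.3 under Python 3.11.15. Genes named are AT5G66650, every tested gene of the family list and every tested neighbor, the 12 highest, 6 lowest and 6 highest by r as described, and in each list the called members and up to 2 with the smallest p. Members and lists were chosen with earlier results of these data known. A listed gene was used only where its symbol matched RefSeq or RefSeq gave its locus by code alone. Alternatives tried were median centring, quantile normalization, a floor of 16, a minimum mean log2 of 5, a trended robust prior, array weights, the methods' one-way test, all probe sets, platform names alone, a replicate block, a threshold of 0.05 and leaving out each array.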

Additional observations from a re-analysis of the deposited data

Results flagged for a closer look

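In 78 groups of 4 to 10 arrays, 2 groups per gene named, 6 held an array far from the rest by Dixon's criterion, which chance alone meets in about 1 of 20 groups. None was a group of AT5G66650. On 4tU-EV replicate 5, where AT5G66650 also had its lowest value, DIN10 (AT5G20250) had an intensity of 25.0, MCCA (AT1G03090) of 197 and AT3G20340 of 145, each far below the other 4tU-EV arrays. This array was the lowest for 14 of the 32 features called higher. The mitochondrial stress gene AT5G51440 had 149 on 4tU-bZIP1 replicate 1, below the rest of its group. ALDH6B2 (AT2G14170) had 112 on 4tU-bZIP1 replicate 3, the array on which AT5G66650 was lowest in that group. The neighbor AT5G66660 had 5.05 on 4tU-EV replicate 1, a small step above 4.94 at the bottom of the scale. The part of single arrays in the likeness to AT5G66650 was not tested beyond leaving each out.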

How the results depend on the processing

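The log2 difference of AT5G66650 stayed within its replicate SD under every alternative that gives one, from 2.52 without 4tU-EV replicate 5 to 2.90 without 4tU-EV replicate 1, with 2.55 under array weights and 2.79 after median centring. Counts of calls moved more, for causes that were not tested except where fewer features or arrays entered. Features called higher, 32 in the comparison as reported, numbered 66 with array weights, 9 on platform names alone, 21 at an adjusted p of 0.05, 18 in replicates 1 to 5 and 17 to 30 with 1 array left out (17 without 4tU-bZIP1 replicate 5, 18 without 4tU-bZIP1 replicate 2, 4 or 6, 19 without 4tU-EV replicate 2). Those called lower, 4 as reported, numbered 27 with array weights, 7 with the floor of 16, 1 at a mean log2 of 5 or more, 2 on platform names alone and 1 to 11 with 1 array left out (1 without 4tU-bZIP1 replicate 5, 2 without 4tU-bZIP1 replicate 1, 11 without 4tU-EV replicate 5). Carbon starvation genes called, 5 as reported, numbered 1 on platform names alone, 3 at an adjusted p of 0.05, 3 in replicates 1 to 5 and 3 to 5 with 1 array left out (3 on leaving out 4tU-EV replicate 1 or 2, or 4tU-bZIP1 replicate 2, 3, 4, 5 or 6). Calcium genes called were 0 to 1 with 1 array left out (1 without 4tU-bZIP1 replicate 2), and mitochondrial stress genes 1 with array weights and 0 to 1 with 1 array left out (1 without 4tU-EV replicate 5). Of the 12 genes most like AT5G66650, 11 stayed among the 12 after median centring, 12 after quantile normalization, 11 with the floor of 16 and 8 to 12 with 1 array left out (8 without 4tU-EV replicate 5, 9 without 4tU-bZIP1 replicate 1).

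With the replicate number as a block in replicates 1 to 5, 0 features were called higher, 0 lower and 0 of the carbon starvation genes, while the log2 difference of AT5G66650 was 2.73 with and without the block. Deviations of same-numbered arrays from their group means correlated at 0.089, 0.016, 0.052, 0.088 and 0.181 for replicates 1 to 5. By a working cutoff of 0.1 in every pair, the numbers were not taken to pair the arrays. All these values are positive, and differently numbered arrays were not compared, so pairing is not excluded. Whether same-numbered arrays share a day or batch was not tested. The difference of AT4G32060 was 0.025 in replicates 1 to 5, with the block and without it, and ran from -0.32 without 4tU-bZIP1 replicate 1 to 0.025 without 4tU-bZIP1 replicate 6. Intensities near the bottom of the scale, as for AT5G66660, limit what can be seen of dim genes.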
